A study of Homo sapiens with 2 samples.

Results

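Forkhead genes encode transcription factors that bind DNA through a winged-helix domain and are named FOX, with a letter for the subfamily and a number for the member. FOXO proteins are held out of the nucleus by insulin and PI3K-AKT signalling and act in the nucleus when that signalling is low, FOXM1 drives genes of late cell cycle, and FOXA proteins open chromatin as pioneer factors. FOXL2 is known for its part in granulosa cell identity in the ovary, FOXC and FOXF members act in mesenchyme, and FOXP2 is best known from the developing brain.

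Genes whose name in the array files was FOX, a letter from A to S and a digit were taken, on probes that were not controls. Described here are 39 genes on 66 probes, of 30238 gene names and 41000 probes on the array. A single probe stood for 19 of the genes, 2 probes for 15, 3 probes for 4, and FOXP2 had 5. The rule used names only.

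The cells were A2780, an established human ovarian carcinoma line, selected by rising drug doses. A2780CBN tolerated 22.2 μM carboplatin, a platinum drug that crosslinks DNA, and A2780CBNDXL was selected in carboplatin together with docetaxel, which stabilizes microtubules. The labels and the methods differ on the dose of this combination, so none is given. Each was set against A2780CC, the parental cells kept in culture alongside without drug. The methods describe a separate control for each line but the labels call both A2780CC, so values of both comparisons are given side by side. Mean control signals of the 2 comparisons were far apart for some genes, such as DCN (65.5 beside A2780CBN, 473 beside A2780CBNDXL). For others, such as KRT8 (775 and 751), they were near. RNA from 3 isolations per line was pooled and hybridised to 4 arrays, each with line and control in different dyes. Arrays 1 and 2 lay on slide 1, arrays 3 and 4 on slide 2. The line carried Cy5 on arrays 1 and 3 and Cy3 on arrays 2 and 4. Every line was thus 1 sample of 1 selection, and the SD over arrays below covers labelling and hybridisation error only, not differences between cultures. No p-value is given for this reason.

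Labels of the reverse arrays (2 and 4) conflicted about the dyes. They were turned as their name states, before which forward and reverse ratios correlated at -0.74 to -0.58 within a line. After turning they correlated at 0.58 to 0.74, while arrays of a line with the same labelling direction correlated at 0.85 to 0.90. Signal rose well above background at 59.8% to 67.5% of spots per channel, and no spot was saturated. Of 15 ovarian epithelial carcinoma markers, 8 were above background in each resistant line, and KRT7, CDH1, MUC16, WT1, MSLN and CLDN4 were not on any array. Of 11 fibroblast and mesenchymal markers, 9 were above background in A2780CBN and 10 in A2780CBNDXL. Of 9 leukocyte markers, 3 were above background in A2780CBN and 4 in A2780CBNDXL, among them CD3E, CD14 and CD68 in both. PTPRC, CD3D, MS4A1 and LYZ were never above background.

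A forkhead gene counted as measured in a line when its brightest probe was well above background in the same channel on all 4 arrays, with no spot marked as an outlier. It was called when the mean log2 ratio of line over control was at least 1 in size, a 2-fold change, with the same sign on all 4 arrays. In A2780CBN, 26 forkhead genes were measured and 4 were called (15.4%), against 12.6% of all 17956 genes measured. FOXA3 and FOXO1 were higher, where 8.01% of all genes were, and FOXL1 and FOXP2 were lower, where 4.57% of all genes were. In A2780CBNDXL, 27 were measured and 8 were called (29.6%), against 17.0% of 17126 genes. FOXD4 and FOXP4 were higher, against 7.71% of all genes, and FOXC1, FOXL1, FOXL2, FOXN4, FOXO1 and FOXP2 were lower, against 9.24% of all genes. No test was made of these shares. With normexp background correction, which adds an offset of 50 to every signal, and loess, the calls left were FOXP2 in A2780CBN and FOXC1, FOXL2 and FOXP2 in A2780CBNDXL, against 3.39% and 6.87% of all genes.

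**Figure D1:**
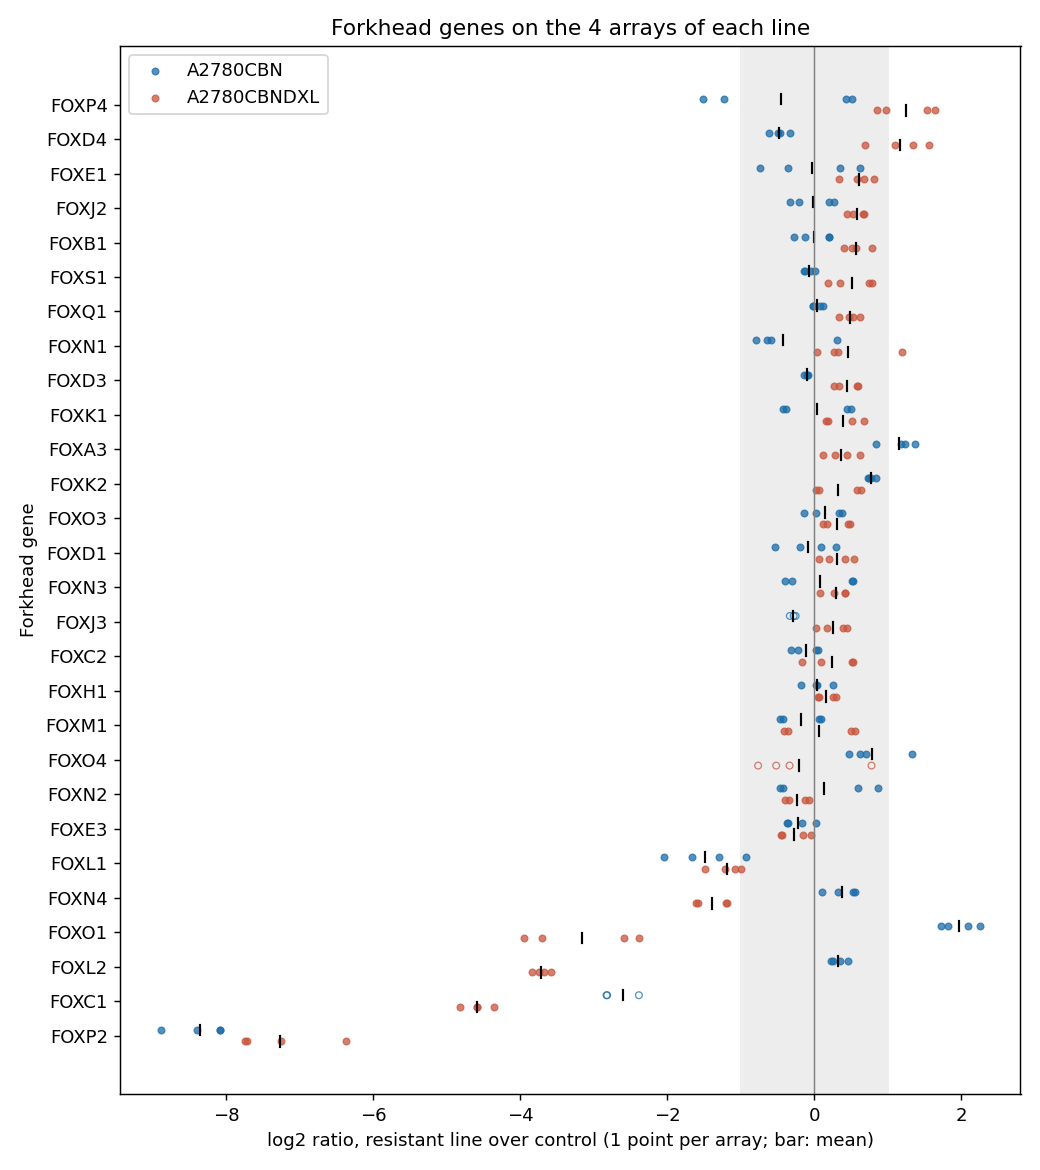
Log2 ratio of resistant line over control (x axis) on each of the 4 arrays for the 28 forkhead genes measured in either line, with black bars for means, a grey band for less than 2-fold, and open points where the gene was not measured in that line. FOXP2 lies far to the left in both lines, while FOXO1 lies on opposite sides of 0 in the 2 lines.

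FOXP2, a neural and lung transcriptional repressor, had the largest difference of the family in both lines. In the control channel its brightest probe, A_24_P38316, gave processed signals of 2356, 1547, 2340 and 1559 on the A2780CBN arrays. The A2780CBN channel gave 8.68, 5.73, 4.97 and 4.65, not well above background on any array. On the A2780CBNDXL arrays the control gave 813, 1295, 1187 and 1255, and the line gave 9.87, 8.53, 5.67 and 5.88, again not above background. The control channel was bright in all 8 hybridisations and the resistant channel dark in all 8. With the dark channel set at the dimmest signal that stands above background, FOXP2 RNA was at least 134-fold lower in A2780CBN. It was at least 86.6-fold lower in A2780CBNDXL. Brighter signals can fail too, as the line channel of FOXE1 probe A_23_P216664 at 30.9 to 33.6 in A2780CBNDXL passed on only 1 of 4 arrays. These bounds and those below hold only for that setting of the dark channel. The FOXP2 log2 ratios as computed were -8.36 ± 0.38 and -7.26 ± 0.64 (SD, n = 4 arrays), but these rest on a surrogate for the dark channel.

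The 5 FOXP2 probes did not read alike. Probe A_24_P38316 lay at chr7:114119122-114119181 (NCBI36) on the plus strand, 265 kb downstream of the first FOXP2 probe, and is annotated to an Ensembl transcript that the RefSeq table did not hold. Probe A_23_P134542, at 233 kb and spanning an intron (chr7:114086911-114089361), was also dark in both resistant lines but gave control signals of only 29.6 to 76.8. It was called in A2780CBN, at least 3.89-fold lower, and was not measured in A2780CBNDXL, where the control passed background on 3 of 4 arrays. The other three, at 0, 216 and 218 kb, were above background on at most 1 array in either channel. The first 30 bases of the bright and of the intron-spanning probe are shown, with any CG dinucleotide in capitals, because the size of the FOXP2 difference rests on the former.
A_24_P38316 (FOXP2): gatacccagtcatctatcacaccaaataaa
A_23_P134542 (FOXP2): agctggtttacaCGgacatttgcttacttc

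FOXP4, a close relative of FOXP2 expressed in many tissues, went the other way in A2780CBNDXL. Its log2 ratios there were 0.85, 1.54, 0.97 and 1.64, a mean of 1.25 ± 0.40 or 2.38-fold. In A2780CBN they were 0.51, -1.51, 0.43 and -1.23, and the sign followed the labelling direction, so no direction can be given. Both other FOXP4 probes were also called higher in A2780CBNDXL, at 1.57 ± 0.35 for A_23_P258703 and at least 2.33-fold for A_24_P371892, whose control channel was dark. FOXP1 and FOXP3 were not above background on any array.

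FOXO1 mediates the response to low insulin signalling and turns on cell cycle inhibitors and stress genes. In A2780CBN its log2 ratios were 1.82, 2.09, 1.72 and 2.25, a mean of 1.97 ± 0.24 or 3.92-fold higher. Line signals of 221 to 268 stood over control signals of 54.6 to 77.6. In A2780CBNDXL the line channel fell to 6.25 to 16.1 and was not above background on any array, while the control stood at 42.7 to 138. With the dark channel set as for FOXP2, FOXO1 RNA was at least 5.71-fold lower, with computed ratios of -2.59, -3.95, -2.38 and -3.70. All 4 arrays of A2780CBN lay above 0 and all 4 of A2780CBNDXL below -2, each set being repeats of 1 pooled sample. The share of all genes called in opposite directions is not given here. The FOXO1 signals were dim, and after normexp background correction with loess the ratios shrank to 0.58 and -0.45, neither past 2-fold. The other FOXO1 probe, A_24_P22079, changed sign with the labelling direction in both lines (0.92 ± 1.77 and -0.75 ± 2.31).

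Its paralogue FOXO3 was measured at 0.15 ± 0.25 in A2780CBN and 0.31 ± 0.19 in A2780CBNDXL. FOXO4 was measured only in A2780CBN (0.78 ± 0.38). Neither was past 2-fold. Among 30 upstream regulators of FOXO proteins (kinases, 14-3-3 proteins, receptors and acetylation enzymes), 1 of 27 measured was higher (3.70%, against 8.01% of all genes) and 2 were lower (7.41%, against 4.57%) in A2780CBN. IRS2, an insulin receptor adaptor, stood at 1.99 ± 0.58, IGF1R at -2.46 ± 0.27 and SKP2, which marks FOXO1 for degradation, at -1.45 ± 0.13. In A2780CBNDXL, 1 of 24 was higher (4.17%, against 7.71%), the deacetylase SIRT1 at 2.44 ± 0.07, and 4 were lower (16.7%, against 9.24%). These ran from PIK3CD, a PI3-kinase subunit, at -1.60 ± 0.25 and IGF1R at -1.47 ± 0.12 to the kinase SGK3 at -1.06 ± 0.15.

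Of 37 FOXO target genes, 28 were measured in A2780CBN, 7 were higher (25%, against 8.01% of all genes) and 1 was lower (3.57%, against 4.57%). The largest ratios were those of GABARAPL1, an autophagy gene (2.58 ± 0.10), and TXNIP, an inhibitor of thioredoxin (2.31 ± 0.43), and the smallest of those higher was that of cyclin G2 (CCNG2, 1.15 ± 0.37). BNIP3, a mitophagy receptor, was the lower one at -1.48 ± 0.07. In A2780CBNDXL, 4 of 27 were higher (14.8%, against 7.71%) and 5 lower (18.5%, against 9.24%). TNFSF10, which encodes the death ligand TRAIL, stood highest at 3.00 ± 0.37 and KLF6 next at 2.26 ± 0.28, while KLF2 was at -3.93 ± 0.16 and ERBB3 at -2.73 ± 0.10. TXNIP was at -1.95 ± 0.37 in this line. The list medians were 0.27 and 0.32, beside -0.06 and 0.04 over all genes.

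FOXM1, which drives mitotic genes, was not past 2-fold in either line. The A2780CBN arrays gave log2 ratios of 0.07, -0.47, 0.09 and -0.43, and the A2780CBNDXL arrays -0.41, 0.50, -0.36 and 0.55, changing sign with the labelling direction. Of 43 FOXM1 target genes, 40 were measured in A2780CBN and only SKP2 was called (2.5% lower, against 4.57% of all genes). In A2780CBNDXL 5 of 41 were lower (12.2%, against 9.24%), from CENPF (-1.52 ± 0.29) and SKP2 (-1.41 ± 0.18) to ECT2 (-1.04 ± 0.52), genes of mitosis, cell cycle entry and cytokinesis. The matrix protease MMP2 was the 1 higher (2.44%, against 7.71%), by at least 9.40-fold. The median of the list was -0.24 and -0.33 in the 2 lines.

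FOXA3, the endodermal member that acts in liver and gut, was called in A2780CBN alone, at 1.37, 1.18, 0.84 and 1.23 (mean 1.15 ± 0.22, 2.23-fold higher). In A2780CBNDXL it was at 0.37 ± 0.21. With control channels exchanged between the lines, the A2780CBN value was 0.88, short of 2-fold. The scaled control channels of FOXA3 differed by 0.28 ± 0.26 (A2780CBNDXL minus A2780CBN, log2). Its other probe stood at 0.93 ± 0.41 in A2780CBN, just short of 2-fold. FOXA1 was not above background on any array and FOXA2 on only a few. Of 29 genes that work with FOXA or FOXC in epithelium, 13 were measured in A2780CBN and 4 were lower (30.8%, against 4.57% of all genes), from ONECUT2 (-1.43 ± 0.23) and ONECUT1 (-1.69 ± 0.20) to the intestinal factor CDX2 (-1.92 ± 0.13) and NKX2-1 of lung and thyroid (at least 8.57-fold lower). In A2780CBNDXL 4 of 14 were higher (28.6%, against 7.71%) and 3 lower (21.4%, against 9.24%), from ONECUT1 (1.77 ± 0.08) and TLE1 (1.14 ± 0.19) to CDX2 (lower by at least 3.42 on the log2 scale) and RUNX2, a bone factor (-3.28 ± 0.16).

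FOXC1 acts in mesenchyme, eye and vessel formation. On the A2780CBNDXL arrays its line signals were 761, 849, 997 and 746 against control signals of 21429, 20354, 20390 and 17987. The log2 ratios were -4.82, -4.58, -4.35 and -4.59, a mean of -4.59 ± 0.19 or 24-fold lower. In A2780CBN the ratios on arrays 1, 2 and 3 were -2.83, -2.38 and -2.82 (mean -2.60 ± 0.25, n = 3 arrays), from line signals of 3090 to 3907. The spot on array 4 was marked as non-uniform, so FOXC1 did not count as measured in A2780CBN. With marked spots kept, an alternative chosen after seeing the data, array 4 read -2.37 and FOXC1 brought the called genes to 5. In that setting 12.2% of all genes were called in A2780CBN. A second FOXC1 probe, A_32_P205110, was called lower in A2780CBN (-2.10 ± 0.40) as well as in A2780CBNDXL (-2.69 ± 0.76). FOXC1 RNA was lower on every array used in both lines. After scaling between arrays, the resistant channels differed by -2.19 ± 0.34 (A2780CBNDXL minus A2780CBN, log2, 3 array pairs) and the control channels by -0.28 ± 0.11.

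FOXL1, a mesenchymal gene of the gut wall, and FOXP2 were the members called lower in both lines. On the A2780CBN arrays the FOXL1 ratios were -1.30, -2.05, -0.93 and -1.67 (mean -1.49 ± 0.48, 2.80-fold). On the A2780CBNDXL arrays they were -1.48, -1.22, -0.99 and -1.07 (mean -1.19 ± 0.22, 2.28-fold). With the control channels exchanged between the lines, the A2780CBN value was -0.78, short of 2-fold, and the A2780CBNDXL value -1.90. The scaled control channels of FOXL1 differed by -0.71 ± 0.81 (A2780CBNDXL minus A2780CBN, log2). FOXL1 in A2780CBNDXL lost its call in the alternative test by analysis of variance over the arrays, which took the 2 channels of an array singly. FOXC1 and FOXL1 each lie in a cluster of 3 forkhead genes. At 6p25, FOXQ1, FOXF2 and FOXC1 lie within 298 kb (NCBI36). FOXQ1, 298 kb from FOXC1, had ratios of 0.04 ± 0.07 and 0.49 ± 0.12 on probe A_24_P235098 (80% GC), and FOXF2 was never above background. The other FOXQ1 probe, A_32_P164246, was not above background on any array in either channel. At 16q24, FOXF1, FOXC2 and FOXL1 lie within 64.9 kb. FOXC2, 10.3 kb from FOXL1, stood at -0.11 ± 0.18 and 0.24 ± 0.34, and FOXF1 was not measured in either line.

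**Figure D2:**
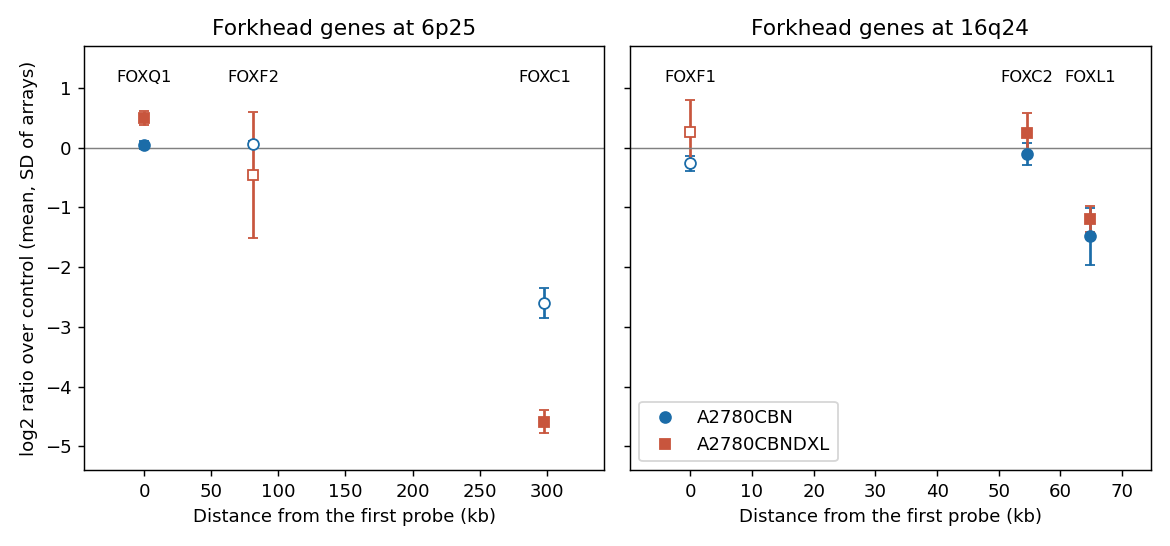
Mean log2 ratio over control (y axis, bars SD over arrays) of the 3 forkhead genes at 6p25 and the 3 at 16q24, by distance from the first probe in kb; open symbols mark genes not measured by the rule, which for FOXC1 in A2780CBN is due to 1 marked spot. FOXC1 and FOXL1 lie below -1 in both lines and FOXQ1 and FOXC2 between -0.11 and 0.49.

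FOXL2, which maintains granulosa cells, separated the lines. In A2780CBNDXL its line signals were 160, 208, 208 and 168 and the control signals 1914, 2793, 2664 and 2388. The log2 ratios of -3.58, -3.75, -3.68 and -3.83 gave a mean of -3.71 ± 0.11, or 13.1-fold lower. In A2780CBN, line signals of 3151, 3177, 2729 and 3094 stood beside control signals of 2631, 2309, 2338 and 2418, a mean of 0.32 ± 0.11. After scaling between arrays, the FOXL2 control channels differed by -0.14 ± 0.15 and the resistant channels by -4.18 ± 0.16 (A2780CBNDXL minus A2780CBN, log2, SD over 4 array pairs). In a list of 29 genes drawn up around FOXL2 and the gonad, 2 of 11 measured were higher (18.2%, against 8.01% of all genes) in A2780CBN. There 3 were lower (27.3%, against 4.57%). In A2780CBNDXL 1 of 10 was higher (10%, against 7.71%) and 3 lower (30%, against 9.24%). SOX9, a factor of testis and cartilage, was at least 44.6-fold lower in A2780CBN and at least 61.6-fold lower in A2780CBNDXL. FST, the activin inhibitor follistatin, was at -2.74 ± 0.34 in A2780CBNDXL, and the nuclear receptor NR2F2 at 1.06 ± 0.13 in A2780CBN and 1.63 ± 0.16 in A2780CBNDXL. In A2780CBN, NR5A2 stood at 1.15 ± 0.32 and DICER1, which cuts microRNA precursors, at -1.10 ± 0.08.

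In a list of genes linked to FOXC, FOXF, FOXQ or FOXS members, 5 of 21 measured were higher and 5 lower in A2780CBN. These were 23.8% each, against 8.01% and 4.57% of all genes. The list is not of mesenchymal genes only, and regulation of its genes by forkhead members was not tested. Fibronectin (FN1, 4.26 ± 0.11) and TGFB2 (3.09 ± 0.12) stood highest, and the repressors ZEB2 and TWIST2 were at least 4.06-fold and 6.21-fold lower. In A2780CBNDXL 2 of 20 were higher (10%, against 7.71%) and 3 lower (15%, against 9.24%), from PDGFRA (2.90 ± 0.11) and TGFB1 (1.22 ± 0.46) to SNAI1 (-2.45 ± 0.17) and TGFB2 (-1.84 ± 0.71).

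**Figure D3:**
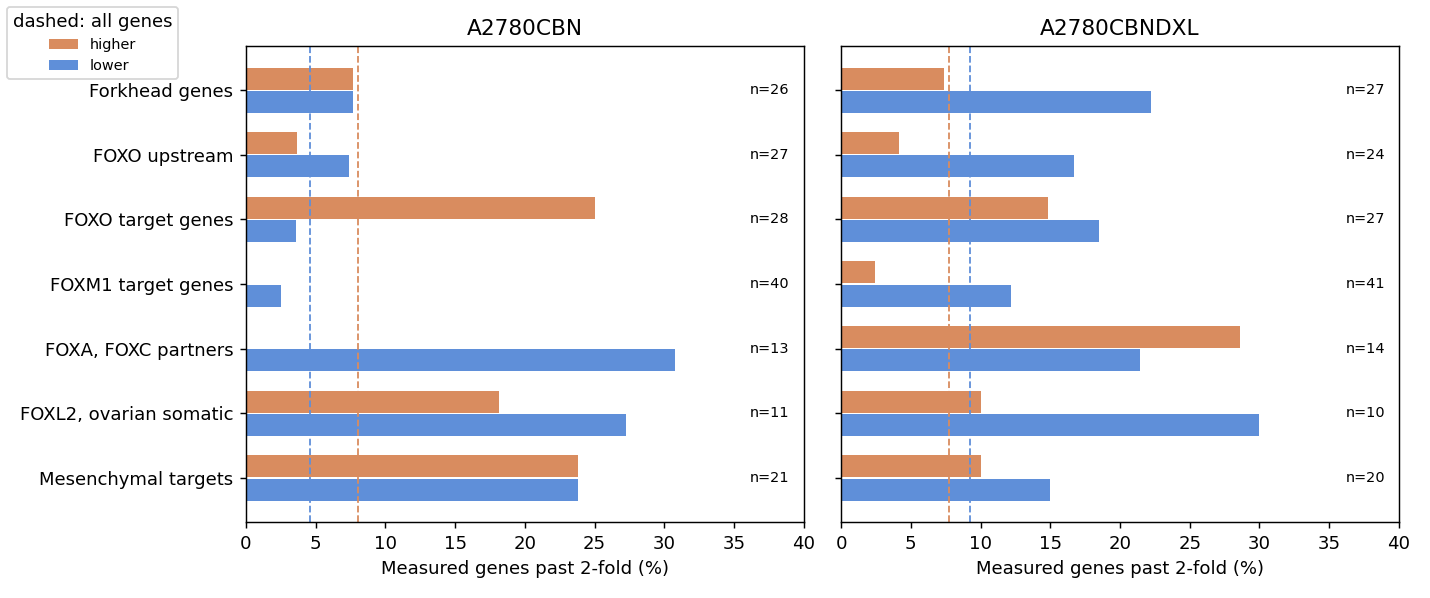
Percentage of measured genes past 2-fold (x axis) in the forkhead family and in the 6 lists of regulators, targets and partners, higher in orange and lower in blue, with the number measured at the right and dashed lines for all genes. In A2780CBN 25% of FOXO targets were higher, and in A2780CBNDXL 22.2% of forkhead genes were lower.

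FOXN4, a retinal and spinal progenitor factor, was lower in A2780CBNDXL at -1.19, -1.59, -1.19 and -1.61 (mean -1.39 ± 0.23, 2.63-fold). In A2780CBN it stood at 0.38 ± 0.21. Neither FOXN4 nor FOXD4 was called in A2780CBNDXL by analysis of variance over the arrays, whose error is that of arrays only. It took the 2 channels of an array singly, with no term for array, so differences in brightness between arrays entered its error. FOXN4 gave 204 (line) and 466 (control) on array 1, and 433 to 477 and 1090 to 1364 on the others. The part of this in the lost calls was not tested. FOXD4 was higher in A2780CBNDXL at 1.56, 1.09, 0.69 and 1.34 (mean 1.17 ± 0.37, 2.25-fold), with control signals of only 28.2 to 84.0. FOXD4 has near-identical FOXD4-like copies, which this probe may share, and without array 1 the mean was 0.95, short of 2-fold. With control channels exchanged, FOXD4 was at 0.39 and FOXP4 at 0.77 in A2780CBNDXL. Their scaled control channels differed by -0.78 ± 0.49 and -0.48 ± 0.92 (A2780CBNDXL minus A2780CBN, log2).

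**Figure D4:**
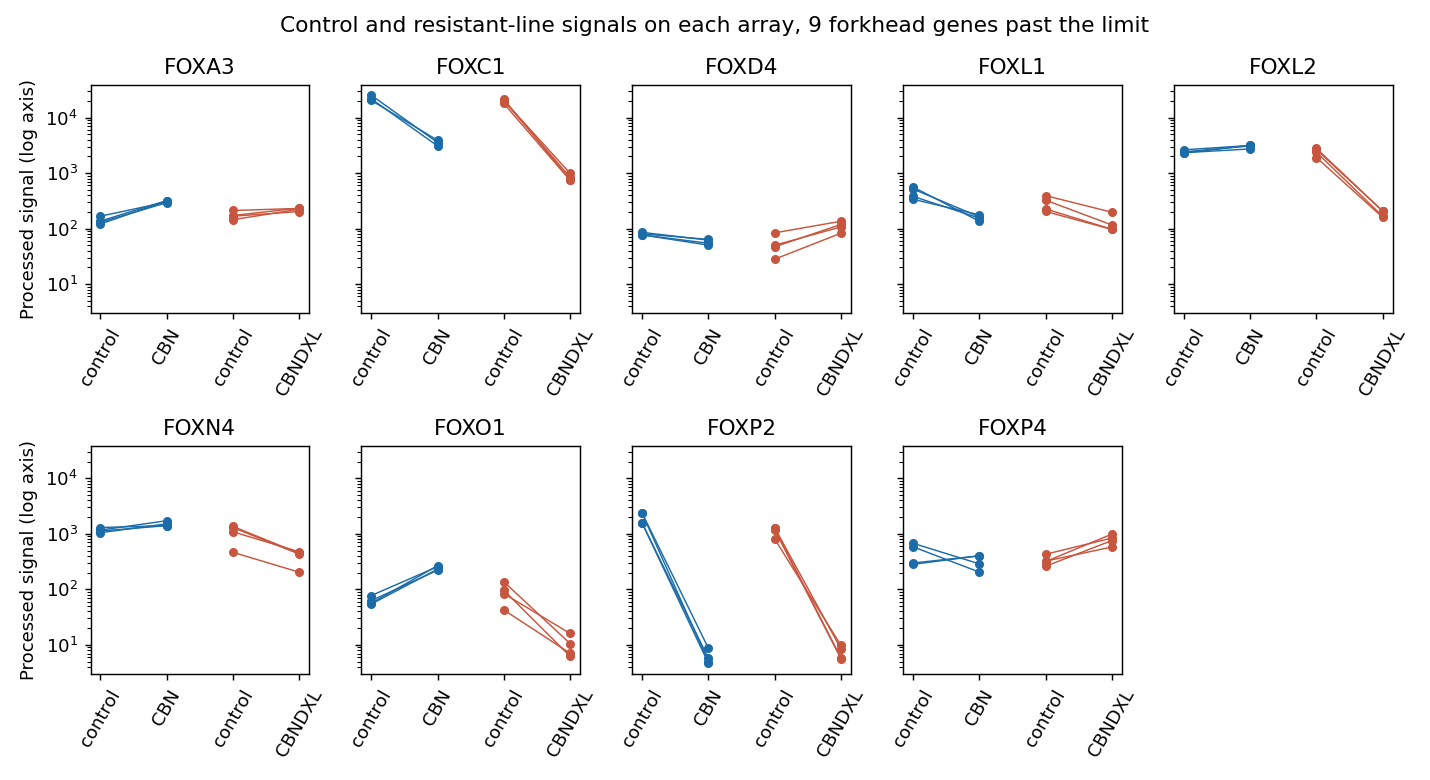
Processed signal (y axis, log scale) of control and resistant line on each array, joined by a line per array, for the 9 forkhead genes called in either line. FOXP2 drops from at least 813 in the control to under 10 in both lines, FOXL2 drops in A2780CBNDXL only, and FOXO1 slopes in opposite directions.

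The remaining 19 measured genes were called in neither line. Those known from early embryo, ectoderm and brain were FOXB1 (-0.00 in A2780CBN and 0.57 in A2780CBNDXL), FOXD1 (-0.08 and 0.31), FOXD3 (-0.10 and 0.45), FOXE1 (-0.03 and 0.60), FOXE3 (-0.22 and -0.27) and FOXH1, a SMAD partner (0.03 and 0.16). Those of broadly expressed regulators were FOXJ2 (-0.02 and 0.58), FOXJ3 (-0.29 on 3 arrays and 0.26), FOXK1 (0.03 and 0.39), FOXK2 (0.77 and 0.32), FOXN2 (0.14 and -0.23) and FOXN3, a checkpoint factor (0.09 and 0.29). FOXN1 of the thymus (-0.43 and 0.46), FOXS1 (-0.07 and 0.52), FOXC2, FOXQ1, FOXM1, FOXO3 and FOXO4 complete the group. In A2780CBN, FOXB1, FOXC2, FOXD1, FOXE1, FOXJ2, FOXK1, FOXN2, FOXN3 and FOXQ1 changed sign with the labelling direction, as FOXM1 did. FOXN2, for example, gave -0.43, 0.59, -0.47 and 0.86. Their means near 0 in that line therefore give no direction. FOXK2 was the member nearest the limit in A2780CBN apart from FOXO4, with ratios that spread little (SD 0.05). FOXA1, FOXF2, FOXI1, FOXP1, FOXP3 and FOXR1 were above background on no array, and FOXA2, FOXD2, FOXF1, FOXI3 and FOXJ1 on too few to be measured.

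Most measured but uncalled forkhead genes of A2780CBNDXL lay above 0. Of 19 such genes, with means of -0.27 to 0.60, 17 lay above 0, and FOXE3 and FOXN2 lay below. The share of all uncalled genes above 0 is not given here. The median over all 27 measured forkhead genes was 0.31, beside 0.04 over all genes. In A2780CBN the median was -0.01 beside -0.06, and 10 of 22 uncalled genes lay above 0. In A2780CBNDXL the median of all genes rose with the GC content of the probe, from -0.13 below 40% GC to 0.40 at 60% and over. The 8 forkhead genes with such GC-rich probes had a median of 0.47. At 50% to 60% GC the 6 forkhead genes had a median of 0.05, beside 0.25 over all genes. At 40% to 50% the 11 forkhead genes had 0.07, beside -0.03. Below 40% the 2 forkhead genes had 0.78, beside -0.13. The part of probe GC in the forkhead median was not tested.

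Measured probes of FOXD1 and of FOXE1 also disagreed. For FOXD1, a kidney stroma gene, probe A_24_P103327 (73.3% GC) gave 0.31 ± 0.21 in A2780CBNDXL, while A_32_P34920, 643 bases away, gave -2.45, -2.50, -2.20 and -2.95 (mean -2.52 ± 0.31). In A2780CBN the latter was at -0.02 ± 0.27. For FOXE1, a thyroid factor, the brightest probe had no mapped position. Its signals were 130 to 377 on slide 1 and 3867 to 9220 on slide 2, 25.3-fold brighter on slide 2 in the mean of both channels. Of 18943 measured genes, 80 (0.422%) differed over 4-fold in this way, and FOXE1 was the only forkhead gene among 28. The mapped FOXE1 probes, A_23_P216664 and A_23_P216667, overlap each other, and both were called higher in A2780CBN (1.29 ± 0.12 and 1.14 ± 0.50). In A2780CBNDXL they stood at -0.46 ± 0.27 and -1.20 ± 0.38. There A_23_P216667 was called lower, so this probe had opposite calls in the lines, on dim signals (means of 19.9 in the line and 41.1 in the control). FOXE1 counts as called in neither line only by its brightest, unmapped probe. The first 30 bases of these FOXD1 and FOXE1 probes follow, with CG dinucleotides in capitals, because the reading for each gene turns on which probe is taken.
A_24_P103327 (FOXD1): gccCGggCGcctcagCGctggCGCGctCGc
A_32_P34920 (FOXD1): ctcccttgaCGtttggcagatgaaaaacaa
A_23_P358370 (FOXE1): ccccCGctaccaccaaCGgctaccaaccac
A_23_P216664 (FOXE1): gatccaaattgtggggaatcagtttcagcc

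The promoters of the called genes were read from RefSeq on GRCh38.p14, as the 250 bases before each annotated start. The table held 29 forkhead genes with 40 start sites, among them all called genes except FOXL1. Forkhead promoters held a median of 24 CG dinucleotides, and all 35116 promoters a median of 11. Among the genes that were lower in a line, FOXC1 held 37, FOXO1 27, FOXL2 25 and FOXN4 14, while the annotated FOXP2 starts held 0 and 2. Among those higher, FOXA3 held 28, FOXP4 21 and FOXD4 13, and FOXO1 was higher in A2780CBN. The forkhead core motif TGTTTA, or TAAACA on the other strand, stood in 11% of all promoters, in 3 of the 40 forkhead ones (of FOXO3 and FOXP1) and in none of a called gene. The longer form TGTTTAC, which contains the core, stood in 2.98% of all promoters and in 1 of the 40. The windows of FOXC1 (chr6:1609665-1609914, plus strand), FOXL2 (chr3:138947138-138947387, minus strand) and FOXP2 (chr7:114414565-114414814, plus strand) are shown with CG dinucleotides in capitals, since these 3 genes had the largest differences of the family and their CG counts span most of the range.
FOXC1: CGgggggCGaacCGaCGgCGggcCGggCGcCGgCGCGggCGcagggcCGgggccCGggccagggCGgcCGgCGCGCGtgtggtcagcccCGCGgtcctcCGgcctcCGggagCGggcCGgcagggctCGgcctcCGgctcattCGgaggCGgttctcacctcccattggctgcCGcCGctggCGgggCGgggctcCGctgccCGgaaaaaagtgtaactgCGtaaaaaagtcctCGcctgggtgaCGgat
FOXL2: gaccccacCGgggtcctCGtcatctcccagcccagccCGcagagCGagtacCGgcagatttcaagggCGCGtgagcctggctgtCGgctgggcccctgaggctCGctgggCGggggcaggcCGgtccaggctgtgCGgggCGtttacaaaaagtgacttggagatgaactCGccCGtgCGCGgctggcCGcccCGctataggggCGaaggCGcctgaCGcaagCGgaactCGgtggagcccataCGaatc
FOXP2: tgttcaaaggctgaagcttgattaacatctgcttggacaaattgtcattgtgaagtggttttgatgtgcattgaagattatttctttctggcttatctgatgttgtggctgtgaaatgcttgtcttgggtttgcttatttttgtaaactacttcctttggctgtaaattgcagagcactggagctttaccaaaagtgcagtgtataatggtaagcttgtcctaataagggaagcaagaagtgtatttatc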

How the data were processed

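Data were 8 two-colour arrays of the Agilent whole human genome 4×44k design, 4 per line. The authors deposited the output of Agilent Feature Extraction (slide 1 in version 10.7.1.1, slide 2 in 10.7.3.1), with probe positions on NCBI36. The processed intensity of each channel was, as deposited, background-subtracted and dye-normalised array by array, and signals near background carried a surrogate value. The deposited raw mean, background and background-subtracted intensities served alternatives only. The A2780DXL arrays were not analysed here. One forkhead gene and 1 gene of the other lists are not reported here, and the counts of members and lists leave them out.

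Spots marked as outliers were left out, spots of a probe were averaged, and log2 ratios were averaged per labelling direction before both directions were averaged. The brightest probe of a gene over the 8 arrays stood for it. Lower bounds came from channels scaled between arrays by the Aquantile method of limma 3.58.1 (R 4.3.3; Python 3.11.15, pandas 2.3.3). Gene names were those of the files, and 63 of 66 forkhead probes matched a RefSeq accession with the same symbol. Since each line was 1 sample, no test across samples was run, and the number of arrays limits the precision.

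Every forkhead gene called in a line was named with its arrays, other measured members with the mean of both lines, the rest by name, and from the 6 other lists the 2 largest and 2 smallest ratios among called genes. TXNIP in A2780CBNDXL and probe pairs that disagreed were named after their values were seen. The members and lists were chosen with earlier results of these data known. Alternatives were normexp (offset 50) with loess, median-centred background-subtracted signals, leaving out each array, each slide or labelling direction alone, the other line's control channel, the mean over probes, no or a stricter filter on dim probes, limits of 1.5-fold and 3-fold, limma with and without slide as a block, and a 3-way ANOVA, whose p-values cover array error only. Keeping marked spots and comparing signals between slides were added after seeing the data.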

Additional observations from a re-analysis of the deposited data

Results flagged for a closer look

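FOXO1 moved one way on all arrays of one line and the opposite way on all arrays of the other, with a mean log2 ratio of 1.97 in A2780CBN and -3.15 in A2780CBNDXL, the last value resting on a surrogate for a dark channel. The difference between the lines was not tested, since each line is 1 sample. No called forkhead gene had a single array standing far from the other three.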

How the results depend on the processing

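No paired analysis was possible because each line was 1 pooled sample. No called forkhead ratio changed sign under any alternative. With normexp and loess, called forkhead genes fell to 1 in A2780CBN (FOXP2) and to 3 in A2780CBNDXL (FOXC1, FOXL2 and FOXP2), genes with opposite calls from 1 to 0, and called genes of the other lists from 30 to 14 and from 35 to 16. A 3-fold limit left 2 and 4 forkhead genes, where 6.28% and 8.60% of all genes were called, and 19 and 20 genes of the other lists. A 1.5-fold limit gave 6 of 26 and 9 of 27 measured forkhead genes, where 27.1% and 33.4% of all genes were called. It gave 58 and 61 genes of the other lists. With the other line's control channel 2 were called in A2780CBN and 5 in A2780CBNDXL, against 13.2% and 17.2% of all genes. FOXC1 in A2780CBNDXL stood at -4.88 there and lost its call through the marked spot on array 4 of A2780CBN. The 3-way ANOVA called 5 in A2780CBNDXL, without FOXD4, FOXL1 and FOXN4, against 15.6% of all genes. The ANOVA dropped no forkhead call in A2780CBN. Limma over the arrays, with or without slide as a block, kept every forkhead call of both lines. Opposite calls numbered 2 on reverse arrays alone and 0 with both channels above background, without a share of all genes to set beside them. The forkhead median moved to -0.15 on forward arrays and 0.14 with the other control in A2780CBN. In A2780CBNDXL it moved from 0.31 to 0.18 with normexp, 0.26 with background-subtracted signals, 0.19 on forward arrays, 0.27 on reverse arrays, 0.16 with the other control, 0.26 over all probes of a gene and 0.26 without a filter. Leaving out each array gave 4 to 5 and 7 to 8 called genes, with medians of -0.04 to 0.00 and 0.29 to 0.32. The shares of all genes were then 12.4% to 12.8% and 16.6% to 17.3%. Without array 1 FOXD4 was no longer called. Slide 1 alone gave 6 and 8 called genes, against 12.6% and 16.5% of all genes. Slide 2 alone gave 4 and 9, against 12.7% and 17.4%. Over all genes, normexp called 3.39% and 6.87%. FOXD4 (mean control signal 52.4 in A2780CBNDXL) and FOXO1 (62.9 in A2780CBN) had dim channels, and the cause of these shifts was not tested.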
